A study of Sus scrofa with 8 samples.

Results

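miR-191-5p is 1 of the 13 abundant miRNAs that the study followed through porcine lactation, and its tags were sought in small RNA libraries from milk exosomes, the small membrane vesicles that were precipitated from defatted and filtered milk. Milk came from 3 healthy Yorkshire sows after their second farrowing. The colostrum group has 3 libraries of single sows on the day of birth, named 0d-1, 0d-2 and 0d-3, plus 3d, for which equal amounts of RNA of the sows were pooled. The mature milk group has the pools 7d, 14d, 21d and 28d, and the number in each name is the age of the piglets in days. A later stage is therefore a single pool without replicates, and the libraries of the stages stand in for replicates of their milk class below.

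A tag is a read whose 3′ adaptor was cut off, and it was counted as miR-191-5p if it was 18 to 26 nt long and its first 18 nt equalled those of the sequence in the q-PCR primer list of the study, called the listed sequence here. miR-191-5p was chosen by its share of exactly matching counts in 0d-1, which is therefore given only as a description. In all, 438302 of the 31322051 counts of 18 to 26 nt in the 8 libraries were miR-191-5p, from 1652 in 7d to 404697 in 0d-3.

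A miRNA is cut from a hairpin precursor and is loaded into an Argonaute protein, where it finds target mRNAs mainly through its seed, bases 2 to 8 from the 5′ end. The 3′ end of a miRNA is often ragged, because the cut by the nucleases Drosha and Dicer can shift by a base, exonucleases can trim the end, and terminal nucleotidyl transferases can add A or U. Tags that differ in this way are called isomiRs, and isomiRs that differ only at the 3′ end share a seed. miR-191-5p is expressed in many tissues and is raised in several carcinomas. In the RefSeq gene table of the pig assembly Sscrofa11.1, its gene MIR191 lies within the span of the protein-coding gene DALRD3, together with MIR425, the other miRNA gene of the cluster. The products of MIR425 and the opposite arm of MIR191 were not analysed here.

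The listed sequence is shown first because all tags are compared with it, with the seed in capitals.
miR-191-5p: cAACGGAAtcccaaaagcagct
The 8 tags that took at least 1% of the miR-191-5p counts in some library are shown next, because the finding lies in their 3′ ends, with capitals for bases that depart from or extend the listed sequence. They are numbered by their mean share over the libraries.
tag 1: caacggaatcccaaaagcagct
tag 2: caacggaatcccaaaagcagctG
tag 3: caacggaatcccaaaagcagc
tag 4: caacggaatcccaaaagcagctGT
tag 5: caacggaatcccaaaagcagctGA
tag 6: caacggaatcccaaaagcagctT
tag 7: caacggaatcccaaaagcag
tag 8: caacggaatcccaaaagcagcA
Tag 1 is the exact listed sequence, tags 3 and 7 are shorter by 1 or more bases, tags 2, 4, 5 and 6 are longer, and tag 8 has the same length with another last base. All of them keep the seed. A hairpin sequence was not used, so whether an added base is encoded in the gene was not determined.

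The libraries differ in what surrounds these tags, and 0d-3 stood apart. It held 13896127 counts of 18 to 26 nt, against 803940 to 4391269 in the others. In the other 7 libraries, 42.5 to 73.6% of these counts had 1 of 4 recurrent 5-nt sequences in front, termed leaders, whereas 0d-3 had 0.105%. Where the leaders come from is not given in the sources used here, and their part in the levels of miR-191-5p was not tested. The paper describes library construction for the day 0 samples together, with no separate preparation for 0d-3. Whether 0d-3 differed in practice was not tested. miR-148a-3p, the most abundant of the 13 miRNAs elsewhere, was reduced to 0.102% of their summed counts in 0d-3. Reads had 36 nt in 7d and 21d and 40 nt in the remaining 6 libraries. Comparisons of the milk classes and of miR-191-5p with other miRNAs are given with and without 0d-3.

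miR-191-5p was a minor and fairly constant part of the 13 miRNAs in 7 libraries and a major part in 0d-3. Its share of the counts of the 13 miRNAs was 2.10% in 0d-1 (95% Wilson interval 2.04 to 2.15%), 2.22% in 0d-2 (2.17 to 2.26%), 13.2% in 0d-3 (13.1 to 13.2%) and 1.69% in 3d (1.61 to 1.77%). In mature milk it was 1.62% in 7d (1.54 to 1.69%), 2.14% in 14d (2.08 to 2.21%), 2.0% in 21d (1.94 to 2.06%) and 2.19% in 28d (2.15 to 2.25%). The intervals reflect the counting error alone, because without molecular identifiers several reads may stem from 1 molecule. The 7 libraries without 0d-3 had 1.99% ± 0.245 (SD, n = 7), and 0d-3 lay 6.60-fold above their mean. In the order of the shares, 0d-3 was followed by 0d-2, 28d, 14d, 0d-1 and 21d, each of which overlapped the next in its counting interval, and then, after a gap, by 3d and 7d, which overlapped each other. Both milk classes were thus present in the upper and in the lower part of this order. Among the 13 miRNAs, miR-191-5p held rank 4 in 0d-3, while its rank elsewhere lay between 6 and 9.

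The total of the 13 is dominated by miR-148a-3p in 7 libraries, so the share was also taken over the other 12 miRNAs. On this total miR-191-5p took 13.2% in 0d-3. Elsewhere it took 5.95% ± 0.329 (SD, n = 7), with a range of 5.56% in 3d to 6.39% in 21d. The excess of 0d-3 was 2.21-fold on this total, and the spread of the other libraries was small, with overlapping milk classes.

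**Figure D1:**
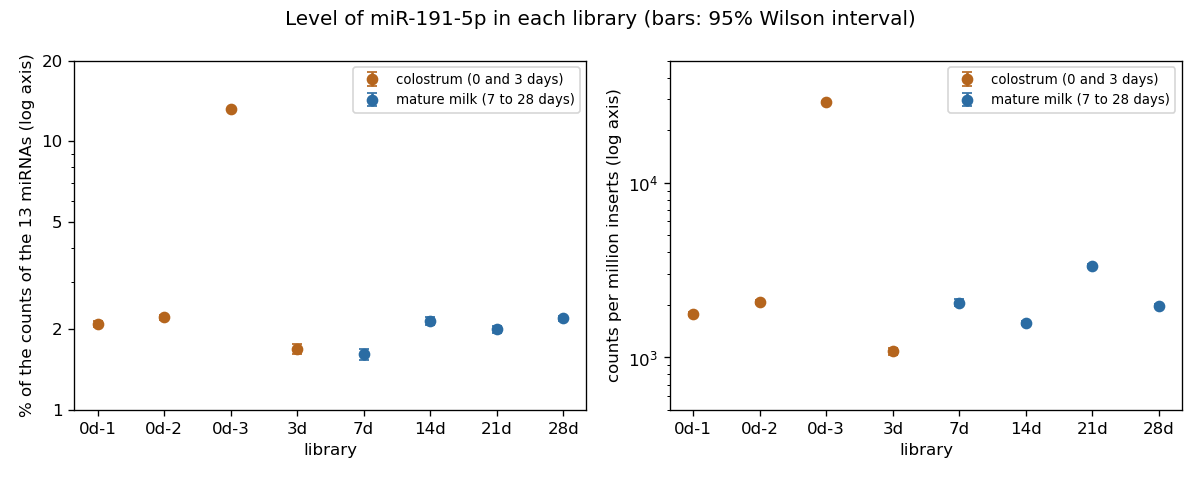
Level of miR-191-5p in each of the 8 libraries, as % of the counts of the 13 miRNAs (left) and as CPM (right), both on log axes, with 95% Wilson intervals of the counting error. 0d-3, at 13.2%, lies above all other libraries, which lie between 1.62 and 2.22% whether they are colostrum or mature milk.

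Scaled to all inserts of 18 to 26 nt as CPM, the level was 1764 CPM in 0d-1, 2076 in 0d-2, 29123 in 0d-3 and 1085 in 3d. It was 2055 in 7d, 1577 in 14d, 3343 in 21d and 1983 in 28d. By this measure 0d-3 was again far above the rest, 21d was the highest of the other 7 libraries and 3d the lowest. This total includes inserts with a leader and RNA of other classes. Without the inserts that carry a leader, the level lay between 4101 in 3d and 6677 in 0d-2 in these 7 libraries and was 29154 in 0d-3.

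The comparison of colostrum with mature milk asks whether early milk carries more of the miRNA. miR-191-5p averaged 4.79% ± 5.58 of the 13 miRNAs in colostrum, against 1.99% ± 0.262 in the later milk (SD, n = 4 each). This difference did not exceed the spread (two-sided exact permutation test, p = 0.429, adjusted p = 0.686 after Benjamini-Hochberg adjustment over 6 tests, with p-values that measure only the spread of these libraries). The log2 ratio was 1.27 on this total and 0.34 on the total of 12 miRNAs, with means of 7.66 and 6.05% (two-sided exact permutation test, p = 0.857). The share was higher than in every mature milk library in 2 of the 4 colostrum libraries, 0d-3 and, by less than the counting error, 0d-2. Without 0d-3 the means were 2.0% ± 0.277 (n = 3) and 1.99% ± 0.262 (n = 4), a log2 ratio of 0.0081 (exact permutation test, two-sided, p = 0.857, where 35 assignments allow no p below 0.0571). By CPM the means were 8512 ± 13747 and 2240 ± 765 (SD, n = 4 each; exact permutation test, two-sided, p = 0.83, adjusted p = 0.914), a log2 ratio of 1.93. The size depended on the total, with a log2 ratio of 4.92 when scaled to all reads, 3.62 with TMM library sizes and 1.15 without inserts that carry a leader (exact permutation tests, two-sided, p = 0.229, 0.629 and 0.314). Without 0d-3 the direction turned, with 1642 ± 507 in colostrum (n = 3) and 2240 ± 765 in mature milk (n = 4; exact permutation test, two-sided, p = 0.4). When inserts with a leader were also left out of the total, colostrum was higher by a log2 ratio of 0.10 (exact permutation test, two-sided, p = 0.629), and scaled to all reads without 0d-3 by 0.38 (exact permutation test, two-sided, p = 0.457).

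In edgeR's quasi-likelihood test across 15212 units, groups of tags that share their first 18 nt, miR-191-5p reached a log2 fold change of 3.62 for colostrum over mature milk (SE 2.03, Benjamini-Hochberg adjusted p = 0.975). Without 0d-3 the log2 fold change was 0.065 (standard error 0.542, adjusted p = 1.0 in edgeR). The background share of called units was 0% in both fits, and an unadjusted p under 0.05 was found for 260 of 15212 units with 0d-3 and for 3549 of 15492 without it. On simulated data, edgeR recovered 0 of 200 changes of 4 log2 units when each library had the spread estimated for the 4 against 4 libraries (dispersion 1.43). With a dispersion of 0.1 it recovered 194, with 10 false calls. The absence of calls with 0d-3 is therefore not read as evidence about such changes. The simulation gave all libraries the same spread, unlike the data, where 0d-3 stood apart. None was made for the fit without 0d-3. DESeq2 called 46 units, all of them lower in colostrum, and gave no p for miR-191-5p. Of the other 12 miRNAs, 0 passed in edgeR, and 11 had a positive log2 fold change with 0d-3 and 11 without it. The median of the 13 miRNAs was 2.35 with 0d-3 and 0.12 without it, beside -0.33 and 0.30 for all units.

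The abundance of 5 other miRNAs followed that of miR-191-5p most closely over the 8 libraries. By Pearson's r of log2 CPM, used as a description, they were let-7a-1-5p (r = 0.999), miR-25-3p (0.998), miR-200c-3p (0.993), miR-574-3p (0.989) and miR-30c-5p (0.988). The points share their libraries and totals, and 0d-3 lies far from the others, so r was also taken over the other 7 libraries, where it was 0.986, 0.985, 0.957, 0.975 and 0.925 in the same order. Over the 8 libraries a high r was not particular to these 5. Close below were miR-375-3p (0.980), miR-30a-5p (0.980), miR-27b-3p (0.978), miR-30d-5p (0.977) and miR-182-5p (0.965). The choice of these 5 rests on 0d-3, since without it miR-30d-5p had the highest r (0.988), miR-30a-5p (0.984) exceeded 3 of the 5, and miR-182-5p (0.931) exceeded miR-30c-5p. The start of let-7a-1-5p is shared by let-7c and that of miR-30c-5p by miR-30b-5p, so the counts of each may include both. The ratio of miR-191-5p to miR-25-3p, a member of the miR-106b-25 cluster, was 0.741 in 0d-3 and between 0.488 and 0.582 in the others. The ratio to let-7a-1-5p was 2.68 in 0d-3 and between 1.26 and 1.71 in the others. The ratio to miR-200c-3p went the other way, with 0.903 in 0d-3 and 1.0 to 1.32 elsewhere, while those to miR-574-3p (2.94 against 0.921 to 1.15) and miR-30c-5p (2.06 against 0.654 to 1.0) were higher in 0d-3. miR-148a-3p had r = -0.895 with 0d-3 and 0.849 without it, and miR-21-5p, an abundant miRNA of many epithelia, had 0.334 and 0.253.

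The 2 most frequent miR-191-5p tags were the same in all libraries and in the same order. The exact listed sequence, tag 1, took 42.0% in 0d-1, 42.7% in 0d-2, 44.9% in 0d-3, 42.0% in 3d, 48.0% in 7d, 40.7% in 14d, 43.9% in 21d and 42.3% in 28d. It was the most frequent tag in each library. The interval of 7d (95% Wilson, 45.6 to 50.4%) lay above those of all other libraries. Tag 2, longer by a G, came next with 35.7% in 0d-1, 34.2% in 0d-2, 38.0% in 0d-3, 37.5% in 3d, 30.4% in 7d, 38.7% in 14d, 35.4% in 21d and 33.8% in 28d. Tags 1 and 2 differed least in 14d and most in 7d. The ratio of tag 2 to tag 1 was 0.848 in 0d-3 and between 0.634 in 7d and 0.95 in 14d in the others.

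**Figure D2:**
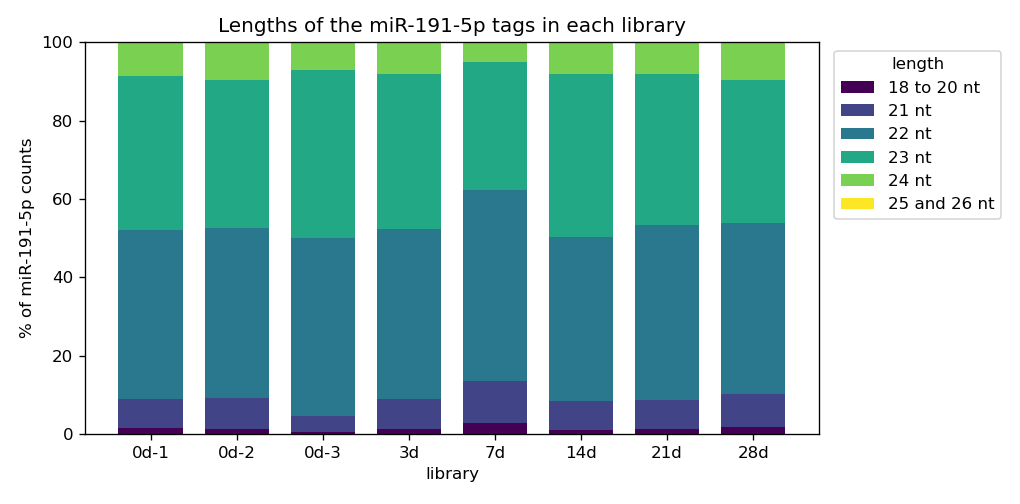
Lengths of the miR-191-5p tags as % of their counts in each of the 8 libraries, with stacked bars that add to 100%. Lengths of 22 and 23 nt fill 80.2 to 88.3% of each bar, the 23 nt part is smallest in 7d, and the summed part of 21 nt and below is smallest in 0d-3.

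By length, 22 and 23 nt together held from 80.2% in 28d to 88.3% in 0d-3. The mean length was 22.5 nt in 0d-3 and 22.4 ± 0.0782 nt in the other libraries (SD, n = 7), with 22.3 nt in 7d. Tags of 23 nt, which include tags 2 and 6, took 39.1% in 0d-1, 37.7% in 0d-2, 42.7% in 0d-3, 39.8% in 3d, 32.8% in 7d, 41.6% in 14d, 38.5% in 21d and 36.6% in 28d. The 95% Wilson interval of 7d (30.6 to 35.1%) lay below those of all other libraries. Tags of 24 nt took between 4.96% in 7d and 9.47% in 0d-2. Tags of 25 nt took at most 0.112%.

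Tags shorter than 22 nt took 8.86% in 0d-1, 9.14% in 0d-2, 4.60% in 0d-3, 9.0% in 3d, 13.4% in 7d, 8.51% in 14d, 8.77% in 21d and 10.3% in 28d. The intervals of 7d (11.9 to 15.2%) and of 0d-3 (4.54 to 4.66%) were apart from all others, on opposite sides. Tag 3, which lacks the last base, accounted for most of them, with 10.6% in 7d, 3.99% in 0d-3 and 7.22 to 8.21% in the other libraries. Tag 7, of 20 nt, was rarest in 0d-3 at 0.515% and most frequent in 7d at 1.82%. The excess of short tags in 7d was shared by other miRNAs. The share of tags shorter than the listed sequence was highest in 7d for 7 of the other 12 miRNAs. The margin was wide for miR-182-5p with 55.1% (the next library had 41.6%) and for miR-200c-3p with 37.8% (next 33.3%). It was small for let-7a-1-5p (14.2%, next 13.6%), miR-25-3p (2.78%, next 2.20%) and miR-574-3p (4.01%, next 3.78%). The share of shorter tags was lowest in 0d-3 for 5 of the 12 and highest there for 3, miR-148a-3p (0.540%), miR-30a-5p (23%) and miR-30d-5p (16.8%). Whether the reads of 36 nt have a part in the values of 7d was not tested. In 21d, also of 36-nt reads, the share of shorter tags was highest for 2 of the 12, miR-27b-3p (5.63%) and miR-375-3p (4.59%).

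Beyond the 22 nt of the listed sequence the next base was nearly always G. Of the tags that extend the exact sequence, base 23 was G in 90.0% in 0d-3 and in 92.7 to 95.2% in the other libraries, T in 8.22% in 0d-3 and in 4.34 to 6.24% in the others, and A in 1.71% in 0d-3 and in 0.321 to 1.0% in the others. C was at most 0.160%. Of the 24 nt tags with a G at base 23, base 24 was T in 60 to 68.7% and A in 30.3 to 40.0% of the counts. Tag 4, ending in GT, therefore exceeded tag 5, ending in GA, in each library, with 5.62 against 2.78% in 0d-1 and 2.91 against 1.94% in 7d. Tags extended by A or T alone, mostly tag 6, took 3.40% in 0d-1, 3.40% in 0d-2, 4.91% in 0d-3, 2.29% in 3d, 2.42% in 7d, 2.81% in 14d, 2.90% in 21d and 2.95% in 28d. The value of 0d-3 lay above the rest, with a 95% Wilson interval of 4.85 to 4.98%.

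**Figure D3:**
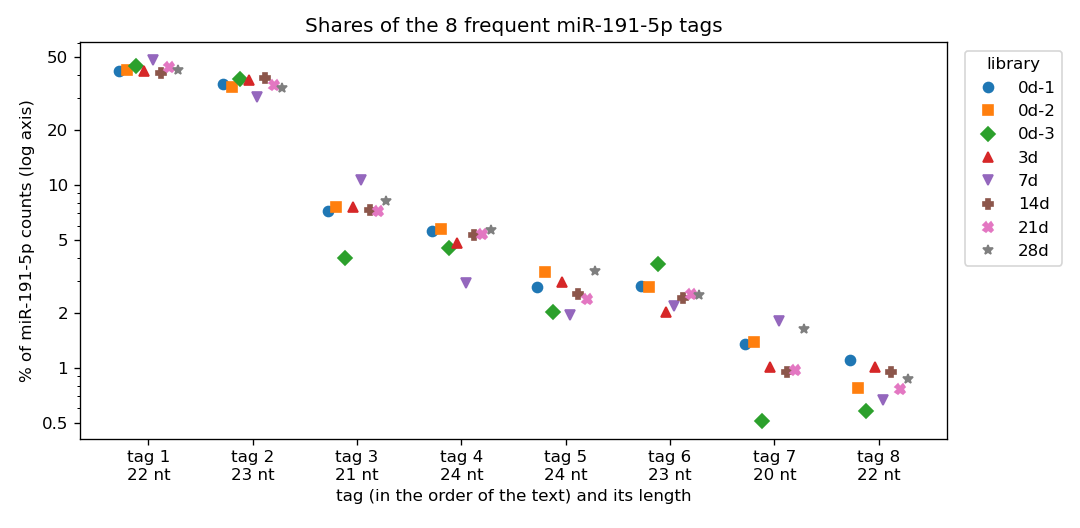
Share of each of the 8 frequent miR-191-5p tags, as % of the miR-191-5p counts on a log axis, with 1 symbol for each library and the length of the tag under its number. The order of tags 1 to 3 is the same in each library, 7d is highest for the shorter tags 3 and 7, and 0d-3 is lowest for these tags and highest for tag 6.

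The 3′ ends were compared between the milk classes without 0d-1. The exact sequence took 43.2% ± 1.50 in 3 colostrum libraries and 43.8% ± 3.12 in 4 mature milk libraries (SD; exact permutation test, two-sided, p = 0.914, adjusted p = 0.914). Tags of 23 nt took 40.1% ± 2.52 and 37.4% ± 3.67 (exact permutation test, p = 0.343, adjusted p = 0.686). Tags shorter than 22 nt took 7.58% ± 2.58 and 10.3% ± 2.26 (exact permutation test, p = 0.343, adjusted p = 0.686), and tags extended by A or T alone 3.54% ± 1.32 and 2.77% ± 0.240 (exact permutation test, p = 0.457, adjusted p = 0.686). The groups overlapped in all 4 measures, and with 3 against 4 libraries the smallest two-sided p is 0.0571, so that no difference could have passed a threshold of 0.05. Without 0d-3 the 4 differences had the same directions, with means of 42.3 and 43.8%, 38.8 and 37.4%, 9.07 and 10.3%, and 2.85 and 2.77%. Apart from the exact sequence, the lowest p was 0.8 (exact permutation tests, two-sided).

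The 8 named tags together held 98.2 to 98.9% of the miR-191-5p counts. The number of different tags was 127 in 0d-3 and between 18 in 7d and 36 in 0d-2 in the others, following the counts. At an equal draw of 1652 counts, the depth of 7d, the expected number was 18.2 in 0d-3 and between 16.7 in 21d and 20.8 in 28d in the others, so that 0d-3 was not richer in isomiRs at the same depth.

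Longer tags are given as a description, with no test, because the order of the miRNAs was seen first. The choice of miR-191-5p bears on them too. A low share of the exact sequence in 0d-1 leaves a large share there for longer or shorter tags. Tags longer than the listed sequence took 46.6% ± 3.81 of its counts (SD, n = 8), from 37.8% in 7d to 49.8% in 0d-3, the highest share of the 13 in each library. miR-30a-5p was next in each library, with 34.0% ± 5.18, followed on average by miR-30d-5p with 21.0% ± 4.26 (SD, n = 8), both of the miR-30 family. miR-148a-3p had 0.288% ± 0.207. Over the 7 libraries other than 0d-1, miR-191-5p exceeded miR-30a-5p by 12.6 percentage points ± 3.55 (SD) and miR-30d-5p by 25.5 ± 2.94. Without 0d-3 these differences were 13.5 ± 2.87 and 26.3 ± 2.21 percentage points (SD, n = 6). The measure depends on the length of the sequence chosen for the table, which is 22 nt for miR-191-5p and 23 nt for both miR-30 members.

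**Figure D4:**
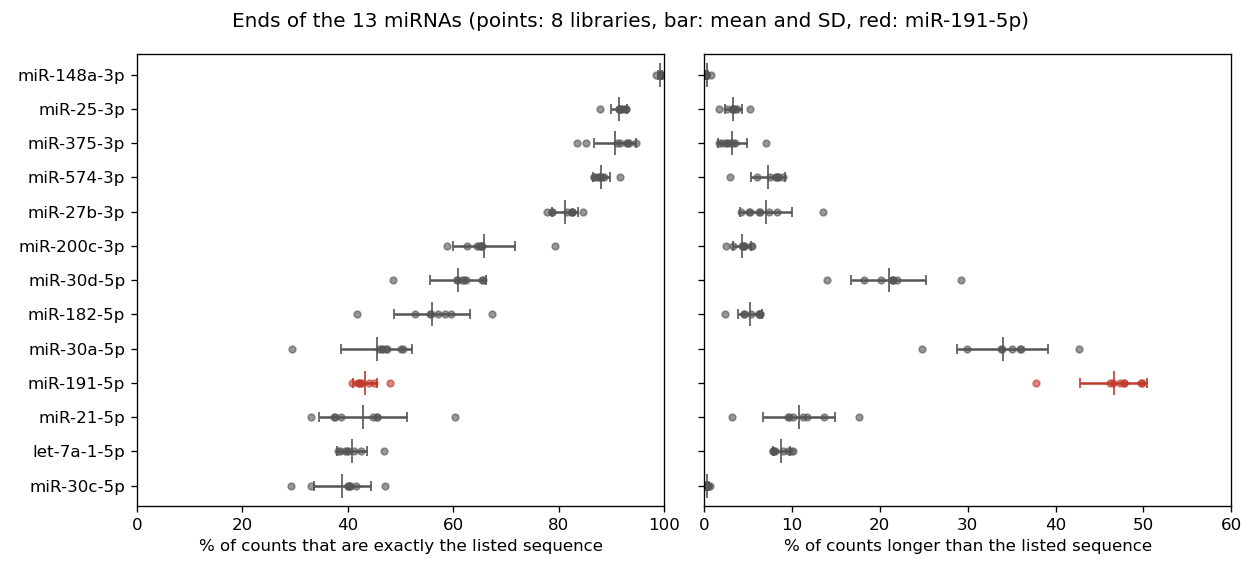
Share of the counts that are exactly the listed sequence (left, %) and that are longer than it (right, %) for each of the 13 miRNAs, with a point for each of the 8 libraries, the mean and the SD, and miR-191-5p in red. miR-191-5p has the largest share of longer tags, at 46.6% on average, whereas 3 miRNAs have a lower mean share of the exact sequence. Among these 3, the counts of miR-30c-5p may include miR-30b-5p and those of let-7a-1-5p may include let-7c.

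The share of the exact sequence is given over the 8 libraries as a description only, since 0d-1 served to choose miR-191-5p. Its mean of 43.3% ± 2.27 (SD, n = 8) lay above those of miR-30c-5p (39.0% ± 5.45), let-7a-1-5p (40.8% ± 2.83) and miR-21-5p (42.9% ± 8.42) and below that of miR-30a-5p (45.4% ± 6.66). Over the 7 libraries other than 0d-1 it was lower than in each of 8 miRNAs by more than the SD of the difference. It was lower than in miR-182-5p in 6 of 7 libraries (mean difference -12.1 percentage points). It was lower than in miR-30d-5p, miR-200c-3p, miR-27b-3p, miR-574-3p, miR-375-3p, miR-25-3p and miR-148a-3p in 7 of 7 libraries. No test is given, because the choice of miR-191-5p by this measure bears on these libraries too. The pools include RNA of the sow of 0d-1. The mean differences from miR-30c-5p (4.76 percentage points), let-7a-1-5p (2.52), miR-21-5p (1.03) and miR-30a-5p (-1.78) were smaller than their SD. Without 0d-3, miR-191-5p was lower than miR-30a-5p in 6 of 6 libraries, with a mean difference of -4.65 percentage points against -1.78 with 0d-3. The library 0d-3 alone went the other way, by 15.4 percentage points. The exact share of miR-191-5p was higher than that of miR-30c-5p in 6 of 6 libraries, by 5.90 ± 7.01 percentage points (SD). The counts of miR-30c-5p may include miR-30b-5p, so this difference may be from a mix of both miRNAs. The difference from miR-182-5p was of like size, -10.4 percentage points against -12.1 with 0d-3, and miR-191-5p was lower in 5 of 6 libraries. The 7 miRNAs that were higher in 7 of 7 libraries were again higher in 6 of 6. Tags of miR-191-5p shorter than the listed sequence had a mean share of 9.08%, whereas miR-30c-5p had 59.2% and miR-21-5p 45.1%. Counts of the shorter miR-30b-5p may be part of the total of miR-30c-5p. Its shares of exact and of shorter tags then do not describe its 3′ ends alone.

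Tags just outside the definition by length were few. Inserts of 17 nt that match the start were seen at most 5 times in a library, against 18 nt tags 1 to 59 times, and inserts of 27 nt were seen 9 times in 0d-3 and 0 times elsewhere. Tags whose start lay 1 nt downstream, which shifts the seed by a base, amounted to 2.14% of the miR-191-5p counts in 0d-1, 2.95% in 0d-2, 1.95% in 0d-3, 3.13% in 3d, 2.60% in 7d, 2.31% in 14d, 2.16% in 21d and 4.04% in 28d. Starts 1 nt upstream came to at most 0.391%. The 5′ end was therefore far more uniform than the 3′ end in each library. Tags with 1 mismatch in the first 18 nt came to 5.94% in 0d-1 and to 1.62 to 3.42% in the other libraries, and those with the mismatch in the seed to 2.28% in 0d-1 and 0.447 to 1.54% in the others. The most frequent substitution in 0d-1 was G6T, counted from the 5′ end, with 38 counts.

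Reads of miR-191-5p that carried a leader before the first base were left out by the definition. They made up 11.7% of the reads with the sequence at the start or after a leader in 0d-1 , 12.4% in 0d-2, 0.00416% in 0d-3 and 4.39% in 3d. In mature milk they made up 1.79% in 7d, 10.8% in 14d, 2.16% in 21d and 12.3% in 28d. The libraries 7d and 21d, of 36-nt reads, were low in this measure. CGTGA was the most frequent leader of miR-191-5p in 7 libraries, and TCAAG was the most frequent in 3d with 42.0% of 88 leader-carrying reads. CGTGA had 88.2% in 0d-3, where only 17 reads carried a leader. In the rest of the 7 it had from 58.5% in 28d to 66.4% in 21d, with 34 leader-carrying reads in 7d. The share of leader-carrying reads was below the median of the other 12 miRNAs in each library, for example 11.7% against 18.4% in 0d-1. In 0d-1 the 12 ranged from 2.67% for miR-148a-3p to 86.1% for miR-21-5p. Counts without leaders therefore leave out unequal parts of the 13 miRNAs, and the part of this in the levels above was not tested.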

How the data were processed

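The deposited values are counts of distinct reads for each of 8 libraries, made by the authors by combining identical Genome Analyzer II reads. They are not normalized and still hold the adaptor. The adaptor, read from what follows miR-148a-3p, was removed from where its leading 8 nt first occurred. Inserts with an undetermined base were dropped, among them 76 counts of miR-191-5p. The libraries held 14590531 to 28141425 reads. Reads with the start of miR-191-5p and no adaptor match were not counted, 0.973% in 0d-3 and 6.63 to 11.5% elsewhere. The 13 miRNAs were recognised by their first 18 nt. The start of let-7a-1-5p is shared by let-7c, that of miR-27b-3p by miR-27a and that of miR-30c-5p by miR-30b-5p. Named were the 13 miRNAs, the 5 most like miR-191-5p and tags of at least 1% in some library. The members, lists and tests were chosen with earlier results of these data known. The class of untemplated 3′ ends was replaced by tags extended by A or T, since no hairpin sequence was used.

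Milk classes were compared by exact permutation tests on the group means, with Benjamini-Hochberg adjustment over 6 tests, and by edgeR on all units (filterByExpr, TMM). The exact sequence is among the 6, but its p is not reported. Sign-flip tests of the exact sequence, chosen after seeing the data, are not reported, because miR-191-5p was chosen by this measure. The 0 day libraries are separate sows per the paper's methods and differed by more than sampling noise over the 13 miRNAs (chi-square per degree of freedom at least 43.6), while over the named miR-191-5p tags the value was 1.55 for 0d-1 against 0d-2, and 43.6 and 83.5 for these against 0d-3. Tools were edgeR 4.0.16 and DESeq2 1.42.0 in R 4.3.3, and scipy 1.17.1 in Python 3.11.15. The scripts were tested on simulated data.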

Additional observations from a re-analysis of the deposited data

Results flagged for a closer look

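In the group of 4 colostrum libraries, 0d-3 lay far from the other 3 in 3 measures of miR-191-5p. Its share of the counts of the 13 miRNAs was 13.2%, its level 29123 CPM of inserts of 18 to 26 nt, and its share of tags shorter than 22 nt 4.60%. Among 20 groups of 4 libraries examined, only these 3 values lay apart. By chance about 1 in 20 groups would show such a value, and several of the measures overlap.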

How the results depend on the processing

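No paired analysis was possible because the labels give the later libraries no replicate numbers, and each of these is a pool over the sows. The 6 permutation comparisons and both edgeR results were recomputed under 117 alternatives in all. Of these, 105 kept the direction or, for the number of called units, the count of 0. Most alternatives for the level keep 0d-3, so their direction rests largely on that library and the count is no measure of stability. The side of the threshold is no measure of stability here, since 3 against 4 libraries allow no permutation p below 0.0571. Leaving out each library in turn gave log2 ratios of 0.0081 to 1.55 for the share of the 13 miRNAs, -0.45 to 2.29 for CPM, -0.052 to 0.029 for the exact sequence, 0.043 to 0.16 for 23 nt tags, -0.59 to -0.18 for shorter tags, 0.039 to 0.59 for tags extended by A or T, and 0.065 to 4.13 for the log2 fold change in edgeR. The lowest level values are those without 0d-3. Over all alternatives the log2 ratio of CPM reached 4.92, with all reads as the total. The direction of the exact sequence turned without 3d and without 7d. In the libraries of 40-nt reads without 0d-3, chosen after seeing the data, the log2 ratio was -0.12 for the share of the 13 miRNAs and -0.12 for CPM, and the log2 fold change in edgeR was -0.085. On the total of 12 miRNAs without 0d-3, also chosen after seeing the data, it was -0.054. For the exact sequence, an adaptor match of 6 nt gave 0.0035 and the libraries of 40-nt reads 0.056. The cause of these turns was not tested. The number of called units was 46 in DESeq2, 1 in edgeR with any count above 10 as the filter, 66 in edgeR on the libraries of 40-nt reads without 0d-3 (65 lower and 1 higher in colostrum), and 0 in the other edgeR fits. At 1652 counts, the lowest depth, a share of 48.0% has a counting interval of 45.6 to 50.4%, so smaller differences between libraries are not detectable there.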
